A study of Mus musculus with 8 samples.

Results

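Chromosomes 10, 11 and 19 were the 3 mouse autosomes whose DNA content, relative to normal liver, stayed closest to the commonest autosomal level across 8 liver tumors. That level was set to 0 in each tumor, and the 3 chromosomes are described here along their whole length. Their members were all probes that are not controls and that the array design places on chromosome 10 (8515 probes), chromosome 11 (8994) or chromosome 19 (4420), 21929 of the 161460 autosomal probes and of the 170305 probes in all. The 3 chromosomes were chosen by their chromosome means, which lay near 0 in these same tumors, so their levels and their spread are given as a description, with no test.

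Each array compared DNA from the liver tumor of 1 male FAH-/- mouse, labelled with the dye Cy5, with DNA of normal liver pooled from 6 male FAH+/+ littermates, labelled with Cy3, and 8 mice were studied. The FAH-/- mice lack fumarylacetoacetate hydrolase, which completes the breakdown of tyrosine, and survive on NTBC (nitisinone), an inhibitor of an upstream enzyme of that pathway that keeps toxic intermediates from forming. Their drinking water held 7.5 mg/L NTBC as the normal dose, and they were then kept on 2.5% of that dose for 6 to 12 months. Each hybridization used 1.5 µg of DNA. The tumors form 1 group and are numbered 1 to 8 by their order in the deposit. A single pool served as the reference on all 8 arrays, the dyes were not swapped, and the tumor mice's own normal tissue was not hybridized, so a difference inherited by a tumor mouse and a change acquired in its tumor cannot be told apart. A tumor also holds cells that are not tumor cells, and a change in few cells and a smaller change in many cannot be told apart.

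Array comparative genomic hybridization lets tumor and normal DNA compete for the same probes, and the log2 ratio of the signals follows the relative number of DNA copies. Liver cancers often gain or lose whole chromosomes or arms, and the autosomes that keep their copy number in a tumor serve as its inner reference. A chromosome that stays balanced in most tumors of a series can still carry short losses or gains, also at its end, where a single break can cut off the terminal piece.

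These 3 chromosomes carry many genes known in growth, tumor suppression and liver metabolism. Chromosome 10 holds Mdm2, which marks p53 for degradation, Cdk4, a kinase that starts the cell cycle, and Stk11, a kinase upstream of AMPK. Chromosome 11 holds Trp53 itself, the growth factor receptors Egfr and Erbb2, the DNA repair gene Brca1, and Fasn and Acaca, enzymes of fatty acid synthesis. Chromosome 19 holds Jak2, a kinase of cytokine signalling, Men1, which encodes menin, and Scd1, a fatty acid desaturase. A list of 76 such genes was placed on these chromosomes through the RefSeq table, 26 on chromosome 10, 35 on chromosome 11 and 15 on chromosome 19, among 1001, 1609 and 705 protein-coding genes. The list holds 22 growth genes, 21 tumor suppressors, 18 genes of liver metabolism, 8 of genome upkeep and 7 of the stress response. That table is on GRCm38 and the probes are on mm9, so a gene is given by its chromosome only and has no value of its own here.

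Probe coverage was even. The probes spanned 126.9 Mb of chromosome 10, 118.8 Mb of chromosome 11 and 58.2 Mb of chromosome 19, at median spacings of 11.1, 10.5 and 10.04 kb. Over the member spots the tumor signal was 4.38 to 6.56 times the local background and the pool signal 4.41 to 11.8 times, and 97.7% to 99.97% of these spots passed as well above background in both channels. With 8 arrays, their number limits the precision. The noise SD of log2 ratios, taken from neighbouring probes, was 0.62 to 0.65 for tumors 1 to 6 and 0.39 for tumors 7 and 8. Most of this was a pattern from probe to probe that the arrays shared. Over the member probes the 15 pairs among tumors 1 to 6 correlated at r = 0.913 to 0.965 and the 13 pairs with tumor 7 or 8 at 0.709 to 0.829, where all arrays share the pool, the probes and the dyes. Values are therefore given on 2 scales. On the scale with the pattern kept, log2 ratios of tumor over pool were centred on the commonest autosomal level of the array. With the pattern removed, the part that the arrays share at each probe was taken off before the centring, which lowers the noise to between 0.12 and 0.21 and keeps changes of whole chromosomes, but also removes any short change that most tumors share. Each array counts in this pattern, so part of its own noise is taken off as well. With the pattern of the other 7 arrays the noise was between 0.15 and 0.22. Tumors 1 to 4 were on slide 1 and tumors 5 to 8 on slide 2.

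How close the 3 chromosomes stayed to 0 was read from their mean log2 ratio in each tumor, with the pattern kept. Chromosome 11 was at -0.0066 in tumor 1, -0.013 in tumor 2, 0.014 in tumor 3, 0.017 in tumor 4, 0.0051 in tumor 5, 0.019 in tumor 6, -0.067 in tumor 7 and -0.0017 in tumor 8. It averaged -0.0042 ± 0.028 (SD, n = 8), and its extremes were 95.5% of the pool's DNA in tumor 7 and 101.3% in tumor 6. Such percentages, here and below, take the commonest autosomal level of the tumor as equal to the pool. No tumor stood more than 0.1 from 0 on this chromosome, and tumor 7 was the one below the others.

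Chromosome 10 was at -0.020, -0.0031, -0.011 and -0.18 in tumors 1 to 4 and at -0.018, 0.0067, -0.021 and 0.063 in tumors 5 to 8. It averaged -0.023 ± 0.070 (SD, n = 8). Tumor 4 was low, at 88.1% of the pool's DNA, tumor 8 was somewhat high, at 104.5%, and the other 6 tumors lay between 98.5% and 100.5%.

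Chromosome 19 was at -0.0082, 0.0041, -0.052 and -0.17 in tumors 1 to 4 and at 0.017, 0.0012, 0.021 and -0.026 in tumors 5 to 8. It averaged -0.027 ± 0.064 (SD, n = 8). The same tumor 4 was low here, at 88.6% of the pool's DNA, and tumor 3 followed at 96.4%.

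**Figure D1:**
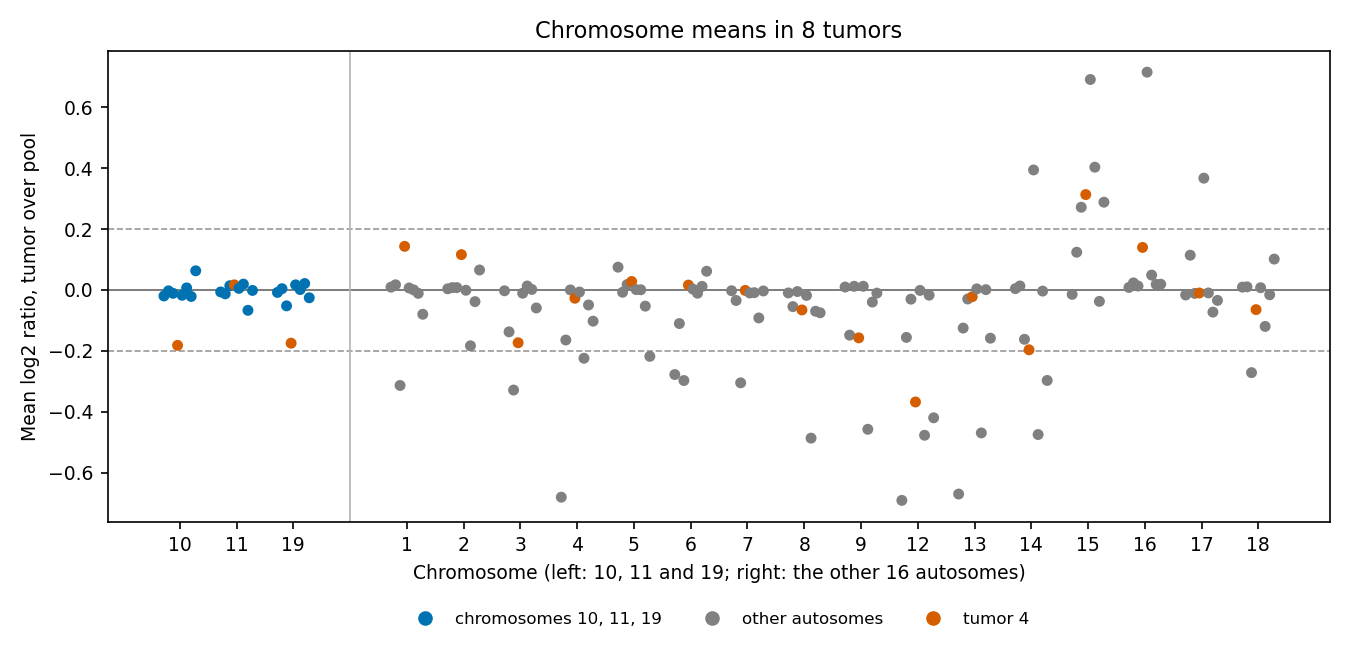
Mean log2 ratio (tumor over pool, pattern kept, y axis) of each autosome in each of the 8 tumors, with chromosomes 10, 11 and 19 on the left and the other 16 autosomes on the right. Points run from tumor 1 to tumor 8 within a chromosome, tumor 4 is in orange, and dashed lines mark 0.2 and -0.2. On chromosomes 10 and 19 only tumor 4 lies more than 0.1 from 0, at -0.18 and -0.17.

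Of the 24 pairs of a member chromosome and a tumor, 22 were within 0.1 of 0 (91.7%), against 81 of 128 pairs on the other 16 autosomes (63.3%). The remaining 2 member pairs, chromosomes 10 and 19 of tumor 4, were at least 0.1 from 0, while over all 19 autosomes 32.2% of the pairs were. Single chromosomes among the other 16 came as close by this count. On both scales chromosomes 5, 7 and 8 each had 7 of 8 tumors within 0.1, as many as chromosomes 10 and 19. Chromosome 11 had all 8. No member pair reached 0.2, against 17.8% of the pairs over all autosomes. After the pattern was removed the same 2 member pairs were at least 0.1 from 0, against 30.9% over all autosomes, and again none reached 0.2, against 18.4%. The median distance from 0 was 0.017 over the member pairs and 0.038 over the pairs of the other autosomes, and the greatest was 0.18 against 0.71.

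The spread over the tumors gave the same order on both scales. Among 19 autosomes the SD of the chromosome mean was lowest for chromosome 11 (0.028), then chromosome 19 (0.064), then chromosome 10 (0.070), against 0.087 to 0.259 for the other 16, whose median was 0.151. On the scale with the pattern removed the SDs were 0.030 for chromosome 11, 0.065 for chromosome 19 and 0.074 for chromosome 10, against 0.080 to 0.258 for the other 16. The step from chromosome 10 to the lowest of the others, chromosome 2 with the pattern kept and chromosome 5 with it removed, was small, 0.070 against 0.087 and 0.074 against 0.080. Since the 3 chromosomes were picked for this, the ranks carry no test. The ratio of the members' median SD to that of the other 16 autosomes was 0.43 over all tumors, and 0.18 without tumor 4. Within slide 1, which holds tumor 4, it was 0.61, and within slide 2 it was 0.25.

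Tumor 4 went against the label of stable chromosomes. Its chromosomes 10 and 19 were low along their whole length and its chromosome 11 was not. All 26 windows of 5 Mb on its chromosome 10 were between -0.20 and -0.16 with the pattern removed, and all 12 windows on its chromosome 19 between -0.21 and -0.14. In 3 consecutive parts of equal length chromosome 10 stood at -0.18, -0.17 and -0.19, and chromosome 19 at -0.18, -0.18 and -0.17, so that no break was seen within either chromosome at this size.

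With the pattern kept, the size and sign of these 2 means depended on where 0 was set. Centred on the array median they were -0.049 and -0.042, both within 0.1 of 0. Centred on the peak of the probe density they were 0.21 and 0.22. Before centring, the commonest level, array median and density peak of tumor 4 were 0.073, -0.060 and -0.318 on that scale. With the pattern removed they lay close together, at -0.045, -0.07 and -0.07. The gap between the chromosomes of tumor 4 does not depend on where 0 is set. Within the tumor, chromosome 10 was 0.20 below chromosome 11 (a difference of -0.20 on the log2 scale), and chromosome 19 was 0.19 below it (a difference of -0.19). In the other 7 tumors the difference of chromosome 10 minus chromosome 11 ran from -0.025 in tumor 3 to 0.065 in tumor 8, and that of chromosome 19 minus chromosome 11 from -0.066 in tumor 3 to 0.088 in tumor 7. Other chromosomes of tumor 4 stood at like levels, chromosome 3 at -0.17, chromosome 9 at -0.16 and chromosome 14 at -0.20, while its chromosome 12 was at -0.37 and its chromosome 15 at 0.31. Were 1 of 2 copies missing from all cells, the log2 ratio would be -1. Both chromosome means of tumor 4 stayed short of the 0.2 at which a segment was called a loss, so only called pieces of these chromosomes enter the called lengths given later, among them chr10:79050158-82265450 with the pattern kept and chr19:13291225-13796570 with it removed.

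Along the chromosomes, 428 of 496 member windows were within 0.1 of 0 with the pattern removed (86.3%), against 63.2% of the windows on the other 16 autosomes. Of the 68 other member windows, 38 were those of chromosomes 10 and 19 in tumor 4. Without tumor 4 the share was 93.3%, against 64.9% on the other autosomes. All but 1 of the 68 other member windows were in tumors 4, 7 and 8. A share near its maximum without these tumors therefore follows from leaving them out, and is no measure of stability. It was 99.7%, 309 of 310 windows, against 64.4% on the other autosomes. The 1 window left was the last on chromosome 11 in tumor 1, at -0.18.

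**Figure D2:**
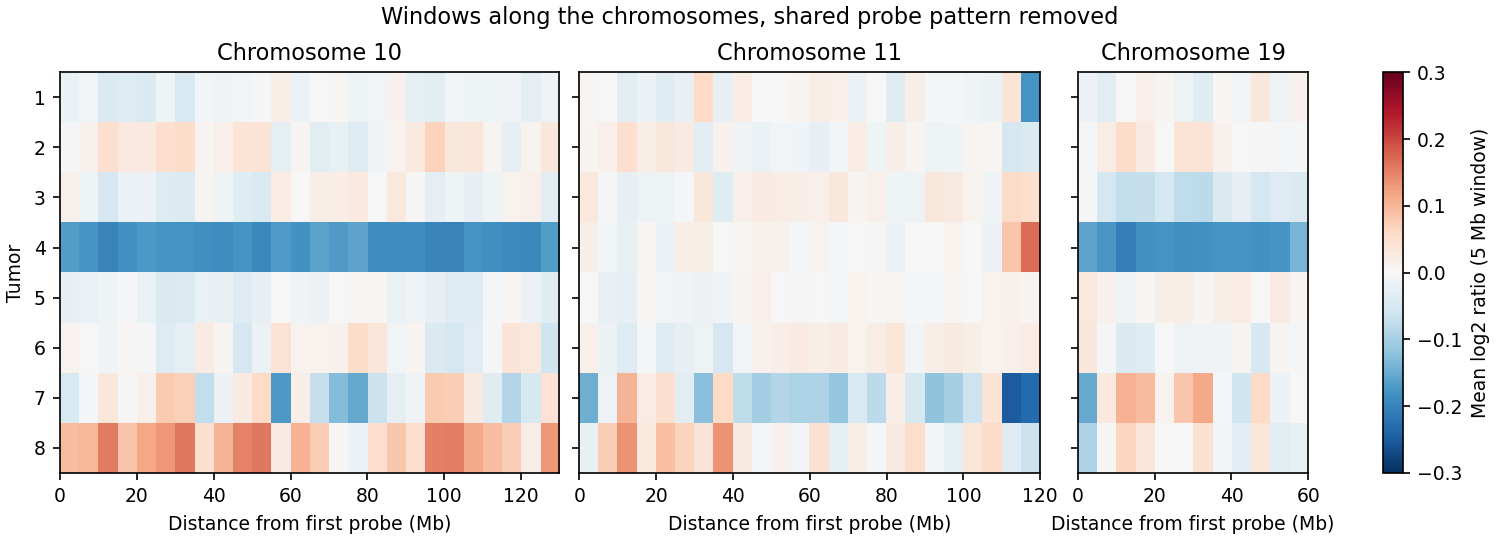
Mean log2 ratio in 5 Mb windows (colour, red above and blue below the commonest level, pattern removed) along chromosomes 10, 11 and 19, with the distance from the first probe in Mb on the x axis and tumors 1 to 8 down the page. Chromosomes 10 and 19 of tumor 4 are blue from end to end, between -0.21 and -0.14, its last window of chromosome 11 is red at 0.17, and that of tumor 1 is blue at -0.18.

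Tumors 3, 7 and 8 also departed from 0. In tumor 3 all 12 windows of chromosome 19 were below 0, from -0.078 to -0.0049, with its chromosome mean at -0.049 with the pattern removed. In tumor 8 the windows of chromosome 10 ran from -0.017 to 0.16, and 14 of 26 were within 0.1 of 0. With the pattern kept, the level at which 0 was set moved by 0.028 in tumor 8 when the 3 chromosomes were left out of the centring, and by at most 0.005 in the other tumors. Tumor 7 had the widest swings, with windows from -0.17 to 0.079 on chromosome 10, from -0.25 to 0.10 on chromosome 11 and from -0.15 to 0.11 on chromosome 19. Its windows varied as much elsewhere. The SD of a tumor 7 window about its chromosome was, with the pattern removed, 0.071, 0.086 and 0.077 on chromosomes 10, 11 and 19, against 0.077 on the other 16 autosomes, and its array kept the highest noise, 0.21.

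Segments were then called as gains or losses where neighbouring probes shared a mean of at least 0.2 in size over at least 5 probes. With the pattern kept, 1.96% of the member probe values of the 8 tumors fell in called segments, 0.184% in gains and 1.78% in losses, while over all autosomes 19.7% did, 4.72% in gains and 15% in losses. Once the pattern was removed it was 1.71% of the member values, 0.29% in gains and 1.42% in losses, against 19% over all autosomes, 4.65% in gains and 14.3% in losses. In the 8 tumors, called segments covered 1.45%, 0.851%, 1.08%, 1.08%, 1.10%, 0.0179%, 6.34% and 0.961% of the probed length of the 3 chromosomes, against 22.8%, 3.96%, 42.1%, 17.2%, 19.8%, 39.7%, 11.8% and 23.0% of that of the other 16 autosomes, each listed from tumor 1 to tumor 8. Tumor 6 had the lowest share on the 3 chromosomes with the pattern kept, although 39.7% of the length of its other autosomes was called, and tumor 5 had the lowest with the pattern removed, at 0.0738%. Tumor 7 held 20 of the 39 called member segments, and 44 of 95 with the pattern removed. On the other 16 autosomes it held 155 of 402 called segments, and 261 of 1269 with the pattern removed. With the pattern removed, called segments of tumor 7 covered 8.48% of the length of the 3 chromosomes. This was close to the 8.72% on its other 16 autosomes. Without tumor 7 the mean called share of the members was 0.934% with the pattern kept and 0.352% with it removed, against 24.1% and 23.4% of the length of the other autosomes.

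The regions that follow were taken by a rule of size: segments of 3 Mb or more, the 10 strongest shorter ones on each scale, and any short region called in at least 4 tumors. Where a region was chosen otherwise, this is said beside it.

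The end of chromosome 11 was low in tumor 1. With the pattern removed it was called in 3 adjoining pieces that reach the last probe, chr11:120647383-121422735 (76 probes, mm9) at -0.62 ± 0.028 (SE over probes), chr11:121438950-121489428 (7 probes) at -0.92 ± 0.023 and chr11:121505521-121809961 (23 probes) at -0.59 ± 0.063. With the pattern kept it was 1 segment, chr11:120662561-121809961 (105 probes, 1.15 Mb), at -0.61 ± 0.073, and this span, which lies outside the rule, was chosen after its values were seen. Probes of 1 array are not replicates, so this SE covers the scatter of probes only.

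Over that 1.15 Mb, with the pattern kept, tumor 1 was at -0.61, while tumors 2 to 8 were at 0.014, 0.070, 0.20, 0.041, 0.064, -0.085 and 0.012. Tumor 1 was below every other tumor, and the other 7 straddled 0. The 370 probes of the 4022 kb just before it, from chr11:116640380 on, were at 0.042 in tumor 1, so the step lies within the last stretch of the chromosome. The size of the drop was close to that of whole chromosomes in the same tumor, -0.68 for chromosome 4, -0.69 for chromosome 12 and -0.67 for chromosome 13. In the RefSeq order on GRCm38, the protein-coding genes nearest to the end of chromosome 11 include Metrnl, which encodes a secreted protein, Tbcd, a folding cofactor of tubulin, Fn3k, a kinase that acts on glycated proteins, and Foxk2, a forkhead transcription factor. Which of them lie within the lost span on mm9 was not tested.

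The same end of chromosome 11 was higher in tumor 4. From chr11:116640380-121809961 (475 probes, 5.17 Mb) tumor 4 was at 0.20 ± 0.034 (SE over probes) with the pattern kept, just under the 0.2 needed for a call. The segment on the other scale, chr11:116668325-121809961 (473 probes), was at 0.16 ± 0.0088. This region was also chosen after its values were seen. Over it, with the pattern removed, the other tumors were at -0.13 (tumor 1), -0.049, 0.048, 0.0054, 0.015, -0.24 (tumor 7) and -0.062, in order from tumor 1 to tumor 8 without tumor 4. Tumor 4 was the highest, and the rest of its chromosome 11, chr11:3030764-116563819, stood at 0.0056 with the pattern kept. Its chromosomes 1, 2 and 16 were also above 0 as a whole, though less high than this end, at 0.14, 0.12 and 0.14 against 0.20 with the pattern kept. With the pattern removed they were closer to it, at 0.14, 0.11 and 0.14 against 0.16. With the pattern kept, the levels of both tumors at this end moved with the centring. Centred on the array median, tumor 1 was at -0.39 over its 1.15 Mb and tumor 4 at 0.33 over its 5.14 Mb, and centred on the peak of the probe density they were at -0.13 and 0.59. With the pattern kept, the loss of tumor 1 was thus short of the call when centred on the density peak. The end of tumor 4 was past the call with both of these centrings, as it also was with the normexp background, at 0.21. With the pattern removed, the density peak and the commonest level of tumor 1 lay close together, at -0.008 and 0.02 before centring.

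**Figure D3:**
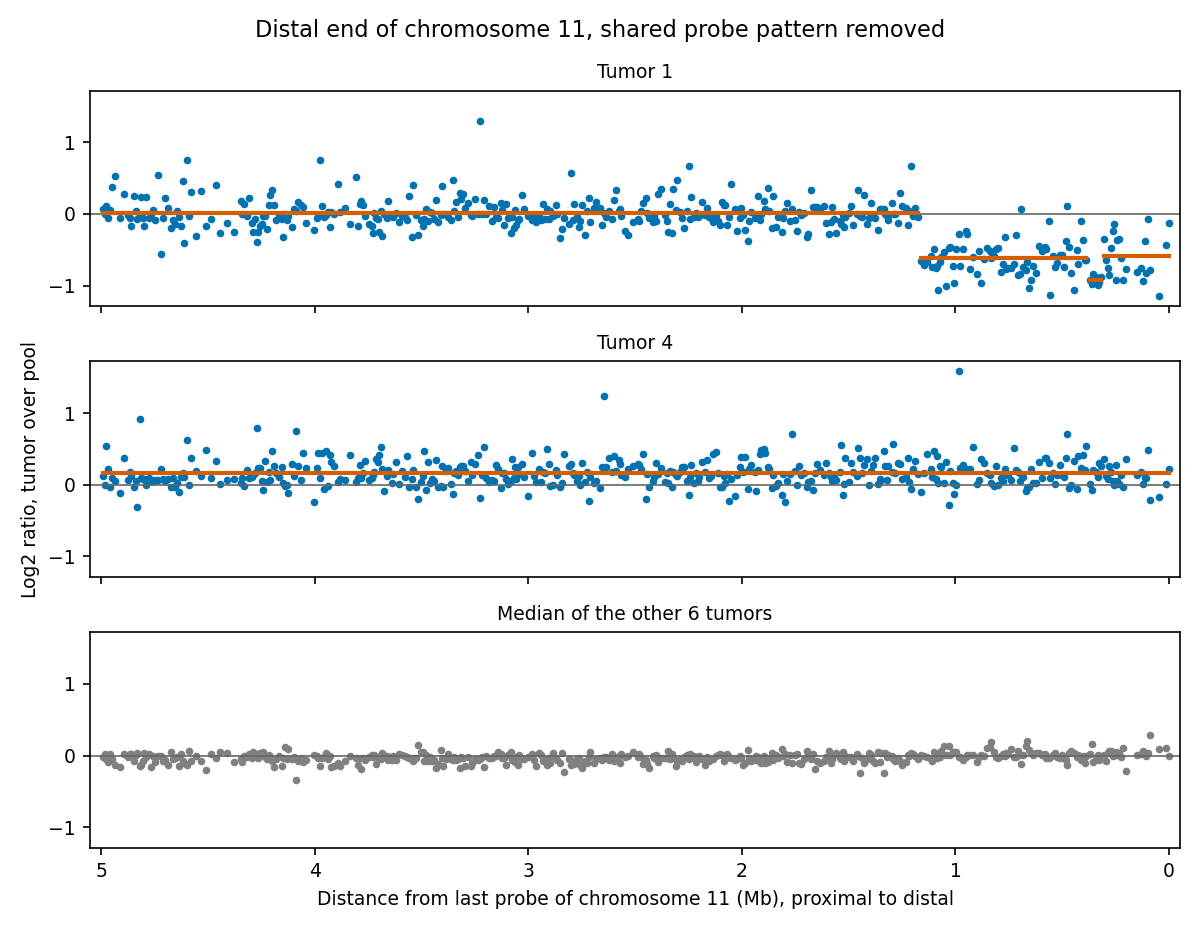
Log2 ratio of each probe (pattern removed, y axis) over the last 5 Mb of chromosome 11 in tumor 1, in tumor 4 and as the median of the other 6 tumors, with the distance from the last probe in Mb on the x axis; orange lines are segment means. Tumor 1 drops to between -0.92 and -0.59 over about the last 1.15 Mb, tumor 4 lies at 0.16 throughout, and the median of the other 6 stays near 0.

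Tumor 7 had the only called segment of 3 Mb or more with the pattern removed, chr11:113127068-118315680 (460 probes, 5.19 Mb) at -0.25 ± 0.016 (SE over probes). Called losses adjoined it distally, chr11:118321386-118584437 (28 probes) at -0.54 and chr11:118593054-120678016 (201 probes) at -0.26, so that the low stretch of tumor 7 ran over 7.55 Mb. Over the segment of 5.19 Mb the other tumors were at 0.032, -0.049, 0.056, 0.088, 0.011 and 0.014 in tumors 1 to 6 and at -0.040 in tumor 8. With the pattern kept the rule took a neighbouring, overlapping piece in tumor 7, chr11:116640380-120594151 (365 probes, 3954 kb), at -0.27, against 0.038, -0.048, 0.072, 0.19, 0.033, 0.046 and -0.092 in tumors 1 to 6 and 8. Tumor 7 was the lowest of the 8 over both. As its windows swing by like amounts on the other autosomes, the part of that array-wide variation in this value was not tested. The end of chromosome 11 itself, the 1.15 Mb lost in tumor 1, was at -0.085 in tumor 7.

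A stretch of chromosome 10 was low in every tumor on the scale with the pattern kept. Over chr10:79050158-82265450 (266 probes, 3.22 Mb) tumors 1 to 8 were at -0.28, -0.30, -0.21, -0.42, -0.24, -0.17, -0.33 and -0.22, a mean of -0.27 ± 0.081 (SD, n = 8). It was called a loss of 3 Mb or more in tumors 1, 3, 4 and 5, and those were 4 of the 5 such calls on the 3 chromosomes, while tumors 2, 7 and 8 had shorter called losses over the same probes. Less the mean of chromosome 10 in the same tumor, it was at -0.26, -0.30, -0.20, -0.24, -0.22, -0.17, -0.31 and -0.28, so the deeper value of tumor 4 was the level of its whole chromosome.

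With the pattern removed the same stretch was at -0.018, -0.047, 0.049, -0.17, 0.010, 0.079, -0.20 and -0.051 in tumors 1 to 8. Less the chromosome mean, tumors 1 to 6 were between -0.059 and 0.077, and tumors 7 and 8 were at -0.18 and -0.14. A value that all 8 arrays share at the same probes goes with the pool, the dyes and the probes as much as with the tumors, and these cannot be told apart without a dye swap or another reference. What remains in tumors 7 and 8 is on the arrays whose shared pattern was weaker, scaled at 0.57 and 0.60 against 1.03 to 1.08 in tumors 1 to 6.

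**Figure D4:**
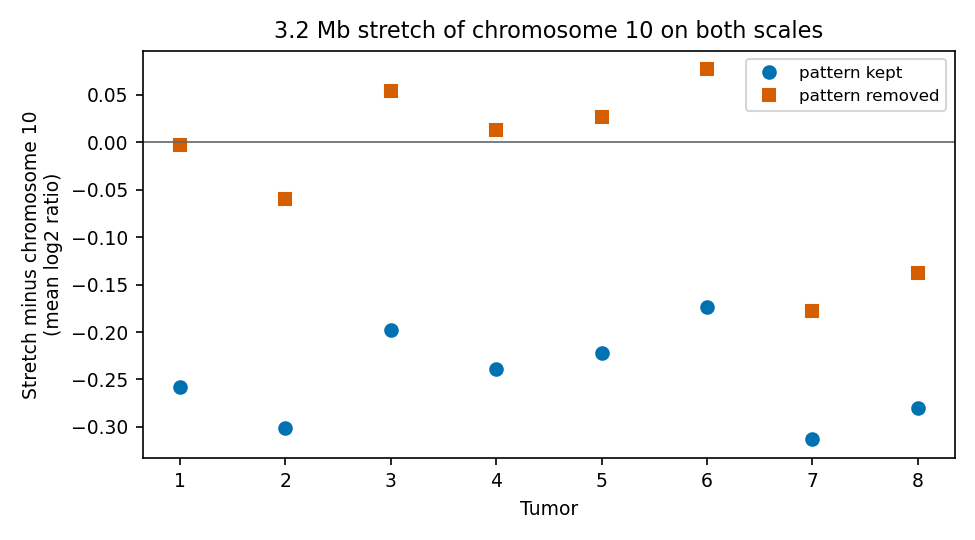
Mean log2 ratio of the 3.22 Mb stretch of chromosome 10 less the mean of chromosome 10 in the same tumor (y axis), for tumors 1 to 8, with the pattern kept (blue circles) and removed (orange squares). With the pattern kept all 8 tumors lie between -0.31 and -0.17, and with it removed tumors 1 to 6 lie between -0.059 and 0.077 and tumors 7 and 8 at -0.18 and -0.14.

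A short stretch of chromosome 11 was high in every tumor. Over chr11:116571610-116626075 (6 probes, 54.5 kb) tumors 1 to 8 were at 1.10, 1.46, 1.59, 1.48, 1.49, 1.54, 1.17 and 0.96 with the pattern kept, a mean of 1.35 ± 0.24 (SD, n = 8), and it was called a gain in tumors 2 to 8. It was the only short region of the 3 chromosomes called in at least 4 tumors. Its level with the pattern removed was -0.48 in tumor 1, 0.32 in tumor 7 and between -0.096 and 0.091 in the other 6. The other strong short gains with the pattern kept were of this kind. Those at chr11:13052081-13200896 (5 probes, 0.93 to 1.14 in the 8 tumors) and chr11:52976992-53019253 (5 probes, 0.54 to 1.56) were above 0 in all 8 tumors, although the call was made in tumors 7 and 8 for the one and in tumor 1 for the other. All 8 tumors were also above 0 at chr11:62372225-62455719 (10 probes, 0.23 to 1.04), which was called in tumor 5.

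Next to it lay a stretch where the tumors differed at 1 probe. Over chr11:116368134-116418646 (6 probes, 50.5 kb), with the pattern kept, tumors 1, 4 and 8 were at -0.0017, -0.071 and -0.34, while tumors 2, 3, 5, 6 and 7 were at -1.27, -1.02, -1.18, -1.12 and -1.43. These means hold the last of the 6 probes, which was not well above background in the 5 low tumors, so those 5 means contain a bound. Over the other 5 probes, chr11:116368134-116410653, tumors 1, 4 and 8 were at 0.38, 0.24 and -0.12 and tumors 2, 3, 5, 6 and 7 at -0.11, 0.013, 0.010, -0.087 and -0.49, so the sets overlapped there and the separation rests on the 1 probe. At that probe, chr11:116418587-116418646, tumors 1, 4 and 8 were at -1.90, -1.62 and -1.45, and tumors 2, 3, 5, 6 and 7 at -7.07, -6.18, -7.10, -6.29 and -6.13. The ratios of those 5 tumors say only that the tumor signal was very low, with a pool signal of 1881 intensity units (median over arrays). These 2 sets of tumors were seen in the data and are no groups of the study.

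Single probes this far from 0 were few. With the pattern kept, 5 of 21929 member probes were at or below -3 in at least 1 tumor, none of 8515 on chromosome 10, 2 of 8994 on chromosome 11 and 3 of 4420 on chromosome 19. Over all autosomes it was 0.0669% of the probes, and on the other 16 autosomes 103 of 139531. The limit of -3 and these probes were chosen after the values were seen.

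The other such probe of chromosome 11, chr11:115862667-115862726, was at -0.70 in tumor 1 and -0.81 in tumor 8 and between -4.38 and -2.71 in the other 6, of which tumors 2, 3, 4, 6 and 7 were not well above background. Tumor 4 was thus on the low side at this probe and on the high side at the one 0.556 Mb farther on. On chromosome 19, chr19:27201110-27201169 was low in all 8 tumors, from -4.48 in tumor 2 to -3.37 in tumor 1, with a pool signal of 1312 intensity units. It was not well above background in tumors 1, 2 and 3. At chr19:3695976-3696035 tumor 1 alone was low, at -3.69, against -1.42 to -0.58 in the other 7, with all spots well above background. At chr19:28990129-28990188 tumor 3 was at -3.15, not well above background, against -2.25 to -1.39 in the others. A sequence difference under a single probe and a missing copy cannot be told apart here.

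**Figure D5:**
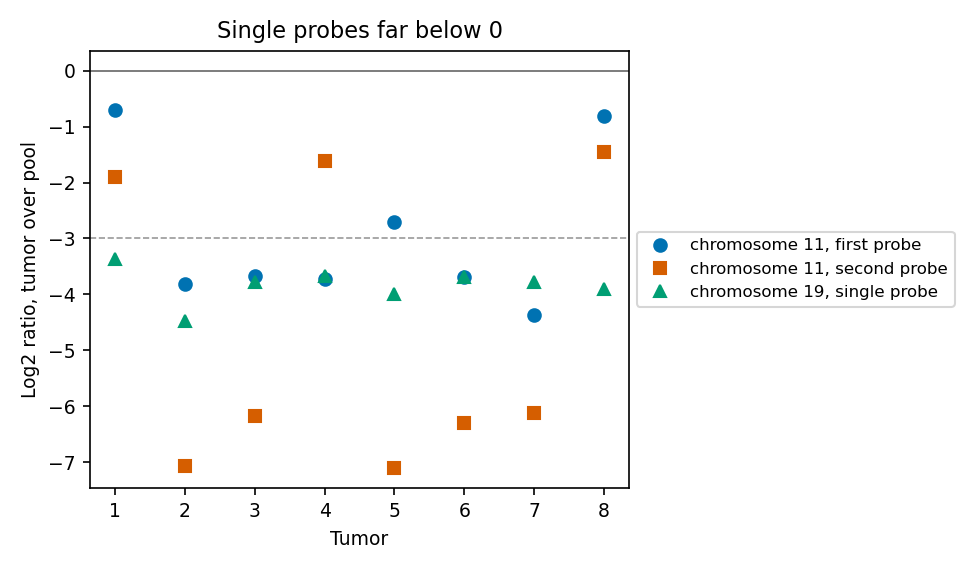
Log2 ratio (tumor over pool, pattern kept, y axis) in tumors 1 to 8 of the 3 member probes that were at or below -3 (dashed line) in at least 5 tumors. The chromosome 19 probe is low in all 8, at -4.48 to -3.37, the first chromosome 11 probe is near -0.70 and -0.81 in tumors 1 and 8, and the second is at -1.90 to -1.45 in tumors 1, 4 and 8 and at -7.10 to -6.13 in the other 5.

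Short calls with the pattern removed numbered 94, of which 43 were in tumor 7, with a median length of 109 kb. The other 16 autosomes had 962, while the 3 chromosomes hold 13.6% of the autosomal probes. With the pattern kept, short calls numbered 34 against 284. Calls of 3 Mb or more with the pattern removed numbered 1 against 307. A segment was called by its level, so pieces of a chromosome gained or lost as a whole were counted one by one. On the other 16 autosomes, removing the pattern raised the calls of 3 Mb or more from 118 to 307. Their called length over all sizes fell from 3794 to 3624 Mb. The counts therefore cannot show how often short changes arose on the other autosomes, and no contrast is drawn from them. Of the 94, 7 were 1 Mb or longer, 6 in tumor 7 and 1 in tumor 8, and the longest was chr10:75092457-77667313 in tumor 7 (2.57 Mb) at -0.21. Of the 10 strongest, those not yet described on chromosome 10 were chr10:59966493-60000860 (5 probes) at -0.69 in tumor 7, chr10:67687203-67741827 (7 probes) at 0.61 in tumor 6, and chr10:92371704-92481070 (5 probes) at 0.58 in tumor 3. Those tumors were at -0.48, 0.15 and -0.59 there with the pattern kept, so the sign of the last turned.

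On chromosome 11 they were chr11:4633974-4665431 (5 probes) at -0.63 and chr11:109171730-109218835 (5 probes) at 0.62, both in tumor 7, and chr11:116606695-116658913 (5 probes) at -0.75 in tumor 1. The same regions were at -0.37, 0.96 and 0.81 in these tumors with the pattern kept. At the last of these regions all 8 tumors were then between 0.81 and 1.57, so tumor 1 was low against the shared pattern and not against the pool. The variable stretch chr11:116368134-116418646 was also called a gain in tumor 1, at 1.10 with the pattern removed, where tumors 4 and 8 were at 1.01 and 0.29. Without its last probe tumor 1 was at 0.37, and with the pattern kept and that probe included it was at -0.0017.

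Chromosome 19 had no call among the 10 strongest on either scale. It had 15 called segments with the pattern removed, 7 gains and 8 losses in tumors 2, 4, 6, 7 and 8, the longest chr19:5425768-7376968 in tumor 7 (1.95 Mb) at -0.24. It had 3 with the pattern kept, all gains in tumors 7 and 8 and 52.0 to 651 kb long.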

How the data were processed

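The authors extracted the arrays with Agilent Feature Extraction 10.7.3.1, per the submitters' processing notes. The deposited processed signals are intensity values, background-subtracted, detrended and linear dye-normalized within each array per the file headers. The deposited log ratios are log10 of red (tumor) over green (pool), and the series' table holds the same log10 ratios rounded, within 0.00498 of the arrays' values, with column medians of -0.0171 to -0.00484. Spots carry quality marks coded 0 or 1 (kept here as the unit other), per the file headers, and probe positions are on mm9.

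From these, log2 ratios of the processed signals were computed for 174305 spots per array. Spots with outlier marks were left out (115 to 221 per array), spots of a probe were averaged, and the commonest segment level of the 19 autosomes (density bandwidth 0.05) was set to 0. Segments came from recursive circular binary segmentation, tested on simulated data and written in Python 3.11.15 (numpy 2.4.6, numba 0.67.0, pandas 2.3.3, scipy 1.17.1, matplotlib 3.10.9), with 1% false splits per chromosome on simulated noise, values limited to 4 noise SD and a merge z of 4. The simulated noise was independent from probe to probe. The 1% therefore need not hold on these arrays, which share a probe pattern and vary along the chromosomes. The shared pattern is the median over the 8 arrays of each probe after each array's chromosome medians were taken off, scaled to the array. Errors are SD over tumors unless said to be over probes.

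The chromosomes, the gene lists and the rule for named regions (in the text) were chosen with earlier results of these data known, so no comparison was tested, and Dixon's criterion in the closing section only marks single tumors. Other centrings, corrections, thresholds and left-out tumors were tried. Probe sequences and mm9 gene positions were not used here. Per the labels the 8 tumors come from separate mice.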

Additional observations from a re-analysis of the deposited data

Results flagged for a closer look

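In each set of 8 tumor values it was asked whether the highest or lowest tumor lay apart from the other 7, by the gap to its neighbour over the whole range (Dixon's critical value). Chance flags about 1 in 20 such sets. Here 13 of 29 sets were flagged, but the sets overlap and were partly chosen for being extreme in 1 tumor, so this number says little by itself, and the means of chromosomes 10, 11 and 19 are the values by which the chromosomes were chosen. No explanation was tested.

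Tumor 4 lay apart for the mean of chromosome 10 (-0.182), the mean of chromosome 19 (-0.175) and the difference of chromosome 10 minus chromosome 11 (-0.199), all with the pattern kept. Tumor 7 lay apart for the mean of chromosome 11 (-0.067) and for the share of the 3 chromosomes in called segments, 6.34% with the pattern kept and 8.48% with it removed. Its other 16 autosomes had called shares of 11.8% and 8.72% on these scales. With the pattern removed tumor 7 also lay apart at chr11:113127068-118315680 (-0.248), chr10:59966493-60000860 (-0.688) and chr11:4633974-4665431 (-0.630). Tumor 1 lay apart at the end of chromosome 11, at chr11:120662561-121809961 (-0.631) and its pieces chr11:120647383-121422735 (-0.617), chr11:121438950-121489428 (-0.917) and chr11:121505521-121809961 (-0.593), again with the pattern removed.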

How the results depend on the processing

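With the pattern kept, where 0 is set decided the levels most, and the other centrings below are given on that scale. Centred on the array median, chromosomes 10, 11 and 19 averaged 0.115, 0.134 and 0.111, 41.7% of their pairs were within 0.1 of 0, 36.6% of their length was called, with 2.5 partial changes of 3 Mb or more per tumor (0.625 as reported), and the ratio of their SD to that of the other autosomes was 0.642 (0.426 as reported). Centred on the peak of the probe density, these were 0.347, 0.366 and 0.343, 4.17%, 85.2%, 6.62 and 0.718, and chromosomes 10 and 19 of tumor 4 reversed to 0.209 and 0.216. With the array median they moved to -0.0494 and -0.0422. At the end of chromosome 11, tumor 1 moved to -0.392 and -0.125 (-0.610 as reported) and tumor 4 to 0.327 and 0.586 (0.194 as reported), centred on the array median and on the density peak, and the normexp background put tumor 4 at 0.212. The commonest level lay 0.016 to 0.227 above the array median with the pattern kept. With the pattern removed, the commonest level, array median and density peak lay close together in tumor 4, at -0.045, -0.07 and -0.07. The gaps between chromosomes 10 or 19 and chromosome 11 in tumor 4 moved by less than the spread between tumors under all 10 alternatives each. Among these, the other centrings cannot change a gap within a tumor, and the series' table holds the same ratios rounded.

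The number of short calls depended on the other choices as well. Short changes under 3 Mb per tumor were 4.25 as reported, 2.5 with at least 10 probes, 2.5 with normexp background, 9 at 5% false splits, 1.5 within slide 1, 7 within slide 2 and 1.5 without tumors 7 and 8. With the pattern removed they were 11.8 (10.6 with the pattern of the other 7 arrays), 22.4 at a call threshold of 0.1, 6.62 at 0.3 and 19.2 at 5% false splits. Partial changes per tumor were 3.12 at a threshold of 0.1 and 0.125 at 0.3. With the pattern removed, or that of the other 7 arrays, or with at least 10 probes or 5% false splits besides, they were 0.125, and 3.88 and 0 at thresholds of 0.1 and 0.3. The called share was 15.9% at a threshold of 0.1 and 17.7% with the pattern also removed. The ratio of SDs was 0.246 within slide 2. The cause of these moves was not tested.

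Leaving out 1 tumor at a time gave ratios of SDs of 0.177 to 0.473 (0.192 to 0.484 with the pattern removed), with 0.177 without tumor 4. Short changes were 2.14 to 4.71 per tumor (7.29 to 13 with the pattern removed), the lowest without tumor 7, partial changes 0.571 to 0.714 (0 to 0.143), and the called share 0.934% to 1.84% (0.352% to 1.55%). Pairs within 0.1 stayed at 90.5% to 100% on both scales. No paired analysis was possible because the labels give 1 group of tumors. Alternatives that combine the pattern removed with another choice were chosen after seeing the data. Segments of a few probes at this noise, shallow changes under 0.2 and changes shared by most tumors are beyond what these arrays resolve here.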
